A study of Mus musculus with 4 samples.

Results

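The 10 genes described here are feedback inhibitors and transcriptional targets of the ERK pathway: the dual-specificity phosphatases Dusp4, Dusp5 and Dusp6, the Sprouty genes Spry1, Spry2 and Spry4, the Sprouty-related genes Spred1 and Spred2, and the ETS transcription factors Etv4 and Etv5. They were chosen by name with earlier results of these data known, so the shares set beside their counts below only describe them. They were found by gene name on the array, where they were 10 of the 22340 genes with a named probe. All 10 had a probe, and there were 13 in all, of which 3 were for Spred1 and 2 for Etv4. Total RNA of 4 groups of mouse cells was hybridised to single-colour arrays, 1 array per group. All cells were labelled as p53-/-, of brain origin and from embryonic day 14.5, and were grown without serum. The group NSC was neural stem cells, NSC-Ceacam1L was neural stem cells made to express Ceacam1L, the long form of an adhesion receptor of the immunoglobulin family, NSCL61 was the cell line of that name, and NSCL61-Ceacam1sh was NSCL61 expressing a short hairpin RNA against Ceacam1. NSCL61 is known as a glioma-initiating line derived from p53-null neural stem cells by an activated form of HRas. The labels describe transfection of vectors and selection with hygromycin for the whole series, and whether NSC and NSCL61 carried an empty vector is not stated there. The series set each culture with a Ceacam1 manipulation against its counterpart without that manipulation to look for genes downstream of Ceacam1.

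The ERK pathway carries signals from growth factor receptors through Ras, Raf and MEK to the ERK kinases. Active ERK turns on genes that dampen it in return. Dusp6 removes phosphate from ERK in the cytoplasm, Dusp4 and Dusp5 do so in the nucleus, Sprouty proteins act upstream between receptor and Raf, and Spred proteins recruit the Ras inactivator neurofibromin. Etv4 and Etv5 belong to the PEA3 group of ETS factors and are induced by ERK signalling, in the developing brain chiefly downstream of FGF receptors. The repressor Capicua (Cic) holds Etv4, Etv5 and several of the feedback genes off until ERK relieves it.

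Because each group had 1 array, no difference has a replicate check and no p-value is given. The error after ± is the scanner software's modelled error, which covers no variation between cultures. Signals are log2 values relative to each array's 75th percentile of signal, so they compare a gene between arrays and not one gene with another. A gene counts as seen in a comparison if either array's probe signal cleared background. The threshold for higher or lower was 2-fold, a log2 difference of 1. Each group also had its own position on 1 slide, so the effect of position cannot be told apart from that of the group, and in RNA of whole cultures fewer cells of a type and less RNA per cell cannot be told apart either. No probe was named for Ceacam1, so the manipulation was not checked here. The array labelled NSCL61-Ceacam1sh stood apart. Over 12474 genes above background on all 4 arrays, its signals correlated across genes at 0.840 to 0.861 with the other arrays, against 0.933 to 0.973 among those. Of 20 neural stem cell markers, 14 were lower and 1 higher on it than on NSCL61, and Gfap, Olig2 and Hes5 were not above background there, while they were on the other arrays. The summed scaled signal of that list was 335 on it, against 1068 on NSC, 991 on NSC-Ceacam1L and 1486 on NSCL61. Of 17 fibroblast and mesenchymal markers seen, 14 were higher and 3 lower, with summed signals of 562 on it and 126, 66.7 and 284 on the others in the same order. Oligodendrocyte markers summed to 3.94 on it and to 133 to 284 elsewhere, neuron markers to 18.8 and 38.6 to 78.8, microglia markers to 13.0 and 21.8 to 28.6, and endothelial markers to 12.4 and 9.59 to 20.1. Such sums are weighted to the brightest probes. In the mesenchymal list these were Fbln2 on NSC (log2 6.88) and S100a4 on NSCL61-Ceacam1sh (8.55). In the neural stem cell list they were Fabp7 on NSC (8.90) and Vim on NSCL61-Ceacam1sh (8.13), where Nes came next at 4.95. The microglia markers Aif1, Ptprc, Tyrobp, C1qa and P2ry12 were above background on no array. Xist, which coats the inactive X chromosome, stood at -4.05 there and at 0.42 to 1.85 elsewhere. Each result on that array below is to be read beside these values, and their part in it was not tested.

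The nuclear phosphatase gene Dusp4 (probe A_51_P518051, chr8:35882045-35882104, plus strand, mm9) had log2 signals of -1.59 (NSC), -1.51 (NSC-Ceacam1L), -1.20 (NSCL61) and 3.71 (NSCL61-Ceacam1sh). It thus stood alike on 3 arrays, whose neighbouring values were less than 2 modelled errors apart, and far higher on the hairpin array. Dusp5, the other nuclear phosphatase (probe A_55_P2063237, chr19:53615682-53615741, plus strand), was not above background on NSC (-4.44) and was at -2.60, -2.20 and -0.79 on NSC-Ceacam1L, NSCL61 and NSCL61-Ceacam1sh. Dusp6, the cytoplasmic ERK phosphatase (probe A_51_P502614, chr10:98729985-98730044, plus strand), went another way, with 5.24, 4.79, 2.32 and 4.25 on the 4 arrays in the same order. Its lowest value was that of NSCL61, and all of its neighbouring values lay more than 2 errors apart.

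Spry1 (probe A_55_P1952235, chr3:37543403-37543462, plus strand) read 4.20, 3.81, 1.36 and 0.45 on NSC, NSC-Ceacam1L, NSCL61 and NSCL61-Ceacam1sh. Spry2 (probe A_55_P1952251, chr14:106291845-106291904, minus strand) read -0.22, 0.20, -2.08 and -1.80. Both were high on the NSC arrays and low on both NSCL61 arrays. Spry4 (probe A_52_P204311, chr18:38745923-38745982, minus strand) read 0.27, -0.69, -3.03 and -0.32, so that the NSCL61 array alone was low. Spred1 and Spred2 varied least. Spred1 had values of 2.54, 2.10, 2.28 and 2.80 at its brightest probe (A_55_P2079430, chr2:117005906-117005965, plus strand), and with these sorted by size no neighbours were 2 errors apart. Its probe A_55_P2079425 gave 1.45, 1.01, 1.18 and 1.84. A dim further probe, A_55_P2090045, which carries the accession of another transcript (ENSMUST00000110901), gave -3.58, -4.25, -4.25 and -2.53. All 3 Spred1 probes were highest on NSCL61-Ceacam1sh. Spred2 (probe A_55_P2025840, chr11:19922416-19922475, plus strand) read 0.64, -0.51, -0.04 and 0.80, with NSC and NSCL61-Ceacam1sh less than 2 errors apart at the top.

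Etv4 was read by a pair of probes on the same transcript. In the order used above, probe A_55_P2078780 (chr11:101631057-101631116, minus strand) gave 4.41, 3.92, 1.74 and 4.20, and probe A_55_P1959521 (chr11:101631322-101631381, minus strand) gave 2.25, 1.81, -0.40 and 2.19. Both showed the same low value on NSCL61 against 3 higher arrays. Etv5 (probe A_55_P2037454, chr16:22381387-22381446, minus strand) read 6.24, 5.47, 4.33 and 4.90, again lowest on NSCL61, and with these sorted by size every step was over 2 errors.

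**Figure D1:**
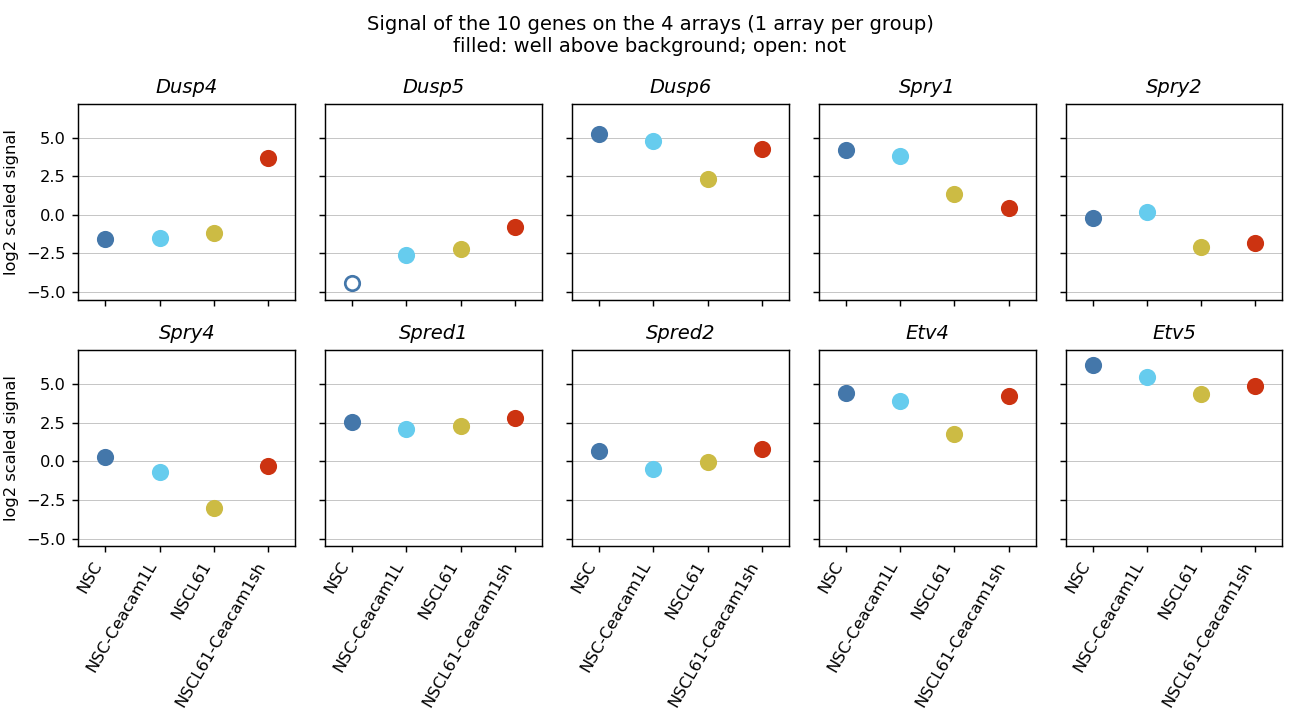
Log2 scaled signal (vertical axes, 0 is the array's 75th percentile) of the 10 genes on the 4 arrays, 1 panel per gene and 1 point per array, at the brightest probe of each gene. Filled points are well above background and the open point is not. Dusp6, Spry4, Etv4 and Etv5 are lowest on NSCL61, Spry1 and Spry2 are low on both NSCL61 arrays, and Dusp4 is high on NSCL61-Ceacam1sh alone (3.71).

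Promoter windows were read for 7 of the 10 genes, from 250 bases before the RefSeq transcription start (GRCm38.p6), to see which held the octamer bound by Capicua. No window was read for Dusp4, Spry4 and Etv4, so whether their promoters hold any of the motifs below was not tested. The letters searched on both strands were TGAATGAA, TGAATGGA, TCAATGAA and TCAATGGA. They were found upstream of Dusp6 and Spry2, and in 3.19% of 32851 windows of the whole table. Both matches lie on the strand opposite to the gene, as TCAATGGA in Dusp6, from 24 bases before the start, and as TCAATGAA in Spry2, from 54 bases before it. The windows, shown because these members carry the match and differed between NSCL61 and NSC, are chr10:99262981-99263230 (plus strand) for Dusp6 and chr14:105896820-105897069 (minus strand) for Spry2, with the match in capitals.
Dusp6: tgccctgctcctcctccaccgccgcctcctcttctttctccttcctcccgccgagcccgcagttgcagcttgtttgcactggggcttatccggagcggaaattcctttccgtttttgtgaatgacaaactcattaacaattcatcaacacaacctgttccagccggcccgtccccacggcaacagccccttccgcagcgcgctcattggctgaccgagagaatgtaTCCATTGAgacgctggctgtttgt
Spry2: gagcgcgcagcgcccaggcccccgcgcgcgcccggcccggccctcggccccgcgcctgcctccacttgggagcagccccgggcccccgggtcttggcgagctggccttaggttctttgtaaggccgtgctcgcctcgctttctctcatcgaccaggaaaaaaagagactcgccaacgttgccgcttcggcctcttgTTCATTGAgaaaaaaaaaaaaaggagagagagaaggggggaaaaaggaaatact
None of the 8 windows of these genes held the ETS motif CCGGAAGT (2.88% of all windows), the AP-1 motif TGANTCA (6.75%) or the cyclic AMP response element TGACGTCA (1.55%). A match is a run of letters and not a measured binding site. Dusp6 and Spry2 were both lower on NSCL61 than on NSC, and they parted on NSCL61-Ceacam1sh, where Dusp6 was 3.81-fold above NSCL61 and Spry2 1.21-fold. Spry1 (-2.83 ± 0.20) and Etv5 (-1.91 ± 0.20), whose windows held no octamer, were also lower on NSCL61 than on NSC. Any part of the octamer in these differences was not tested.

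Between NSCL61 and NSC, Dusp6, all 3 Sprouty genes and both Etv genes were lower on the NSCL61 array. Spry4 was 9.80-fold lower (-3.29 ± 0.23), Dusp6 7.60-fold (-2.93 ± 0.20), Spry1 7.12-fold (-2.83 ± 0.20) and Etv4 6.35-fold (-2.67 ± 0.20, or -2.66 at its other probe). Etv5 was 3.75-fold lower (-1.91 ± 0.20) and Spry2 3.62-fold (-1.86 ± 0.21). Of the 10 genes, 6 were lower and 1 higher, where 14.0% of 15299 genes seen were lower and 14.4% higher. The median of the members was -1.88, against 0.03 over all genes. Dusp5 was the one gene counted as higher. It was not above background on NSC, so its difference is written as at least 4.20-fold. That value leaves out the modelled error of 0.47 and is no strict lower limit. The remaining 3 lay within 2-fold, with Dusp4 at 0.39 ± 0.22, Spred1 at -0.27 ± 0.20 and Spred2 at -0.68 ± 0.20. On the same arrays 4 neural stem cell markers were higher and 3 lower of 20, and 8 fibroblast markers higher and 4 lower of 15. Oligodendrocyte markers were lower in 4 and higher in 0 of 10, neuron markers higher in 4 and lower in 2 of 9, microglia markers higher in 2 and lower in 0 of 5, and endothelial markers higher in 3 and lower in 0 of 5. The part of these markers in the members' differences was not tested. With normexp background correction Dusp5 no longer passed 2-fold (0.89), and under spike-in scaling the share of all counted genes that were higher went from 50.7% to 39.7%.

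Between NSCL61-Ceacam1sh and NSCL61, all 3 phosphatase genes, Spry4 and Etv4 were higher on the hairpin array. Dusp4 was 30.2-fold higher (4.91 ± 0.21), a difference larger than that of 97.7% of genes seen. Spry4 was 6.53-fold higher (2.71 ± 0.23), Etv4 5.50-fold (2.46 ± 0.20, and 2.59 ± 0.21 at its other probe), Dusp6 3.81-fold (1.93 ± 0.20) and Dusp5 2.66-fold (1.41 ± 0.22). In all, 5 of the 10 genes were higher and 0 lower, where 23.5% of 15620 genes seen were higher and 24.2% lower, and the median was 1.13 against 0.01 over all genes. No test stands behind this count of 0, since there was 1 array per group. Spry1 was the only member with a negative difference, at -0.91 ± 0.20. Spry2 (0.28 ± 0.22), Spred1 (0.52 ± 0.20), Etv5 (0.58 ± 0.20) and Spred2 (0.84 ± 0.20) lay within 2-fold, although the dim Spred1 probe gave 1.72 ± 0.33. Under median scaling, the share of all counted genes that were higher went from 49.2% to 64.5%, and under spike-in scaling to 64.9%, and the members' median was then 1.55 and 1.56. Spred2 then passed 2-fold (1.26 and 1.28). Etv5 was just short of 2-fold under median scaling (1.00 after rounding) and passed it under spike-in scaling (1.01). Under cyclic loess Etv5 was at 0.27. Under cyclic loess Spry1 was lower by just over 2-fold (-1.07). With normexp background correction Dusp5 no longer passed 2-fold (0.94), which left 4 genes higher (18.1% of all genes).

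The NSCL61 array enters both of these comparisons, and the NSC array enters both NSCL61 minus NSC and NSC-Ceacam1L minus NSC, so a high or low reading on either moves both. Set directly against NSC, the NSCL61-Ceacam1sh array was 0.21 ± 0.20 lower in Etv4, 0.59 ± 0.20 lower in Spry4, 1.00 ± 0.20 lower in Dusp6 and 1.33 ± 0.20 lower in Etv5. Spry2 was 1.58 ± 0.21 and Spry1 3.74 ± 0.20 below NSC there. Dusp4 was 5.30 ± 0.21 and Dusp5 3.65 ± 0.47 above it, the latter against a signal not above background. The 6 genes that were lower on NSCL61 than on NSC thus ranged on the hairpin array from Etv4, near its NSC signal, to Spry1, far below it, with Spry4, Dusp6, Etv5 and Spry2 between them.

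Between NSC-Ceacam1L and NSC, the members differed little. Spred2 was 2.22-fold lower (-1.15 ± 0.21), and Dusp5, not above background on NSC, was at least 3.17-fold higher. The count of 1 higher and 1 lower among 10 genes stands beside 10.5% higher and 6.05% lower among 15313 genes seen. Spry4 (-0.96 ± 0.21), Etv5 (-0.76 ± 0.20), Etv4 (-0.49 ± 0.20), Dusp6 (-0.45 ± 0.20), Spred1 (-0.44 ± 0.20) and Spry1 (-0.38 ± 0.20) were all below 0 by less than 2-fold, while Spry2 was at 0.43 ± 0.21 and Dusp4 at 0.09 ± 0.22. The members' median was -0.45 against -0.10 over all genes. It shrank to -0.07 under spike-in scaling and to -0.16 under cyclic loess, where Spred2 no longer passed 2-fold. The share of all counted genes that were higher, 63.4%, was 84.2% and 76.4% under these scalings. With normexp background correction Dusp5 stood at 0.55.

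**Figure D2:**
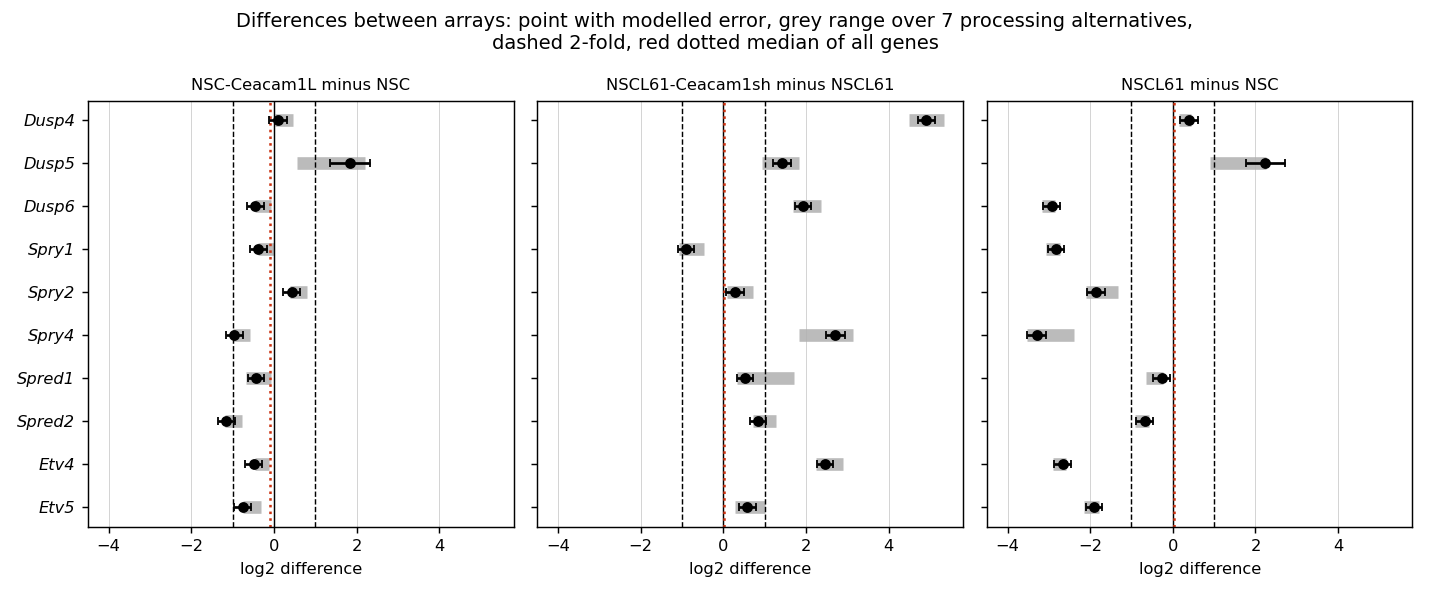
Log2 differences of the 10 genes in the 3 comparisons (horizontal axes). Points are the differences with their modelled error, grey bars span 7 processing alternatives, dashed lines mark 2-fold and the red dotted line is the median over all genes seen. In NSCL61 minus NSC, 6 genes lie beyond -1, and in NSCL61-Ceacam1sh minus NSCL61 5 genes lie beyond 1, led by Dusp4 at 4.91.

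Likeness among the members was measured as the distance between log2 signals centred on each gene's mean over the 4 arrays, among 99 other genes of the signalling lists that were above background throughout. The nearest gene to Spry4 was Etv4 (distance 0.46 log2 units) and that to Etv4 was Spry4. Next to Etv4 came Flrt3 (0.65), which is not a member. The nearest genes to Dusp6 were Etv4 (0.66) and Spry4 (0.71). Spry4, Etv4, Dusp6 and Flrt3 were all lowest on NSCL61. Spry2 lay nearest to the immediate early gene Egr1 (0.41), Spry1 to Egr2 (1.33), and Etv5 to Etv1 (0.83), the remaining PEA3 factor. Spred2 was nearest to Myc (0.41). Dusp4 was nearest to Errfi1 (0.92), an inhibitor of the EGF receptor, and Dok1 (0.94), an adaptor that restrains Ras. Dusp5 was left out because it was not above background on NSC. Over only 4 arrays, such distances describe these arrays alone.

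The other genes of the pathway were read from 5 lists. Their counts stand beside the shares over all genes seen. These were 14.4% higher and 14.0% lower in NSCL61 minus NSC, and 23.5% and 24.2% in NSCL61-Ceacam1sh minus NSCL61. In NSC-Ceacam1L minus NSC they were 10.5% and 6.05%. Among 26 further phosphatase and feedback genes, 3 were higher and 4 lower of 23 seen in NSCL61 minus NSC, with a list median of 0.19. Dusp2, a nuclear MAP kinase phosphatase, was lower (-1.48 ± 0.23), as was Flrt3, a membrane protein that promotes FGF signalling (-1.93 ± 0.20), while the Ras inactivator Rasa2 (1.82 ± 0.21) and Dusp1 (1.33 ± 0.20) were higher. On NSCL61-Ceacam1sh against NSCL61, 8 of 24 were higher and 4 lower (median -0.42). Dusp2 was higher there by 4.23 ± 0.22, and Dusp9, not above background on NSCL61, was at least 8.03-fold higher, whereas Rasa2 was lower by 2.38 on the log2 scale and Dok2, not above background on the hairpin array, at least 4.79-fold. Between the NSC arrays, 0 were higher and 1 lower of 24, the 1 being Dusp10 (-1.22 ± 0.21). In NSCL61 minus NSC the share of lower genes in this list was 17.4%, near the share over all genes.

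Of 22 other genes of the ETS family and its partners, 15 or 16 were seen in each comparison. In NSCL61 minus NSC, 2 were lower and 0 higher: Ets1 (-1.28 ± 0.21) and the PEA3 factor Etv1 (-1.06 ± 0.20). The 2 lower genes were 13.3% of those seen, near the 14.0% over all genes. On the hairpin array 5 were higher and 0 lower, led by Ets1 (2.66 ± 0.21) and Ets2 (2.60 ± 0.20). The 5 were 31.2% of those seen, against 23.5% over all genes. The ETS repressor Erf was the 1 gene past 2-fold between the NSC arrays (-1.24 ± 0.20). Cic, named here after its values were seen, was within 2-fold throughout, at 5.62, 5.57, 6.04 and 5.51 on the 4 arrays.

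Genes known as ERK targets in other cells were read as a list of 30. In NSCL61 minus NSC, 7 of 27 were higher and 9 lower (median -0.03). Fosl1 (at least 5.65-fold) and Lif (at least 10.7-fold) were higher and had no signal above background on NSC. Ier3 (at least 85.7-fold) and Areg (at least 12.7-fold) were lower and had none on NSCL61. On NSCL61-Ceacam1sh, 13 of 28 were higher and 4 lower (median 0.79), with Ier3 higher by at least 1267-fold and Ereg, which encodes an EGF receptor ligand, by at least 518-fold, both against no signal above background on NSCL61, Fos lower (-3.12 ± 0.20) and Tgfa, not above background there, at least 1.63-fold lower. Between the NSC arrays 3 were higher and 5 lower of 26 (median 0.09), among them Junb (1.96 ± 0.21), Itga2 (at least 2.65-fold higher), Klf10 (-1.83 ± 0.20) and Hk2 (-3.10 ± 0.21).

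The kinases and adaptors of the core pathway formed a list of 26. In it, 5 were higher and 0 lower in NSCL61 minus NSC, including the ERK kinase gene Mapk3 (1.31 ± 0.20) and the FGF receptor adaptor gene Frs3 (at least 2.37-fold, not above background on NSC). On the hairpin array, 4 were higher and 5 lower, with the adaptor Shc1 at 3.46 ± 0.20, the kinase Rps6ka3 at 2.47 ± 0.21, the docking protein Gab1 at -3.44 ± 0.21 and Frs3 at least 3.69-fold lower. Between the NSC arrays none of the 26 passed 2-fold in these values. Among the 12 growth factor receptors seen on the hairpin array or NSCL61, 6 were lower and 1 higher (median -0.93). The median was -0.50 once bounds replaced the differences in which 1 array did not clear background. The neuregulin receptor Erbb4 (at least 115-fold) and Kit (at least 62.1-fold) were lower on the hairpin array, where neither cleared background, and the mesenchymal receptor Pdgfrb, not above background on NSCL61, was at least 82.0-fold higher. In NSCL61 minus NSC, Kit (2.12 ± 0.21) and Met (1.75 ± 0.30) were higher and Egfr lower (-1.32 ± 0.20) among 11 receptors seen. Pdgfrb was the 1 receptor past 2-fold between the NSC arrays, at least 3.06-fold higher on NSC-Ceacam1L and not above background on NSC.

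**Figure D3:**
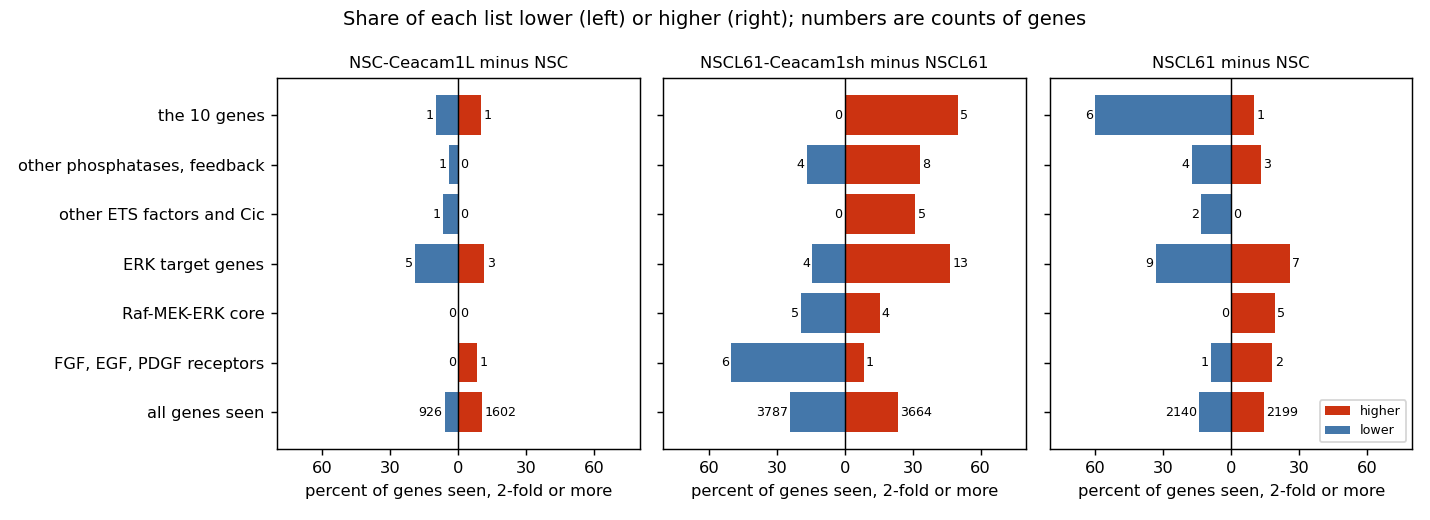
Share of the genes seen in each list (horizontal axes, percent) that were lower (blue, left) or higher (red, right) by 2-fold or more in each comparison, with the counts beside the bars and all genes seen in the bottom row. Of the 10 genes, 6 are lower in NSCL61 minus NSC, against 14.0% of all genes, and 5 higher in NSCL61-Ceacam1sh minus NSCL61, against 23.5%.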

How the data were processed

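RNA of 4 cultures was measured on 1 array each, and groups were taken from the sample titles. The scanner intensity values (processed signal, background-subtracted and spatially detrended within the array) come from the authors' run of Feature Extraction 10.7.3.1, protocol GE1_107_Sep09, on array design 028005 with mm9 coordinates, per the file headers. Version 9.1 of the same software is named in the submitters' processing notes. Flags for background and outlier spots have no unit other than 0 or 1. The authors' deposited table is on a log2 scale: its differences between arrays had slopes of 0.9999 to 1.0000 against those of the scanner signals, which settles scale and direction, while its centring is unknown (column medians 0.25 for NSC, -0.20 for NSC-Ceacam1L, 0.00 for NSCL61 and 0.03 for NSCL61-Ceacam1sh). It served as an alternative only.

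The 75th percentile of the 59305 spots that are not controls set the scale of each array before log2 was taken. Outlier spots (143 to 187 per array) were left out, none was saturated, and replicate spots were averaged by probe. A probe was above background when the scanner software said so for at least 50% of its spots (27412 to 29550 of 55681 probes per array). Names came from the NSCL61 file, matched by accession or symbol to the RefSeq gene table of GRCm38.p6, and the probe with the highest mean stood for a gene. The median spot-to-spot SD of probes printed 8 times or more was 0.0559 to 0.0634, which covers technical spread within an array. Every probe of the members was read from 1 spot. No member value is thus an average of spots, and this SD was not measured on the members. A bound written "at least" divides the bright signal by the dim one or, where that is higher, by the lowest signal above background on the dim array. It leaves out the modelled error and is no strict lower limit. For Dusp5 against NSC, normexp correction gave differences below 2-fold. With 1 array per group no test was run. The counting code was tested on data with known shifts. Alternatives were median, quantile, cyclic loess and spike-in scaling, normexp correction with an offset of 50 (limma 3.58.1), the deposited table, the lowest-mean probe, no filter on dim probes, and 1.5-fold and 4-fold thresholds. From the other lists, the 2 genes past 2-fold with the largest difference in each direction could be named, and for likeness the 2 nearest genes. The promoter motifs were chosen with the members' values in view. The members and lists were chosen with earlier results of these data known. Promoter sequences are from RefSeq (GRCm38.p6). The likeness of Spred1 is not reported here.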

Additional observations from a re-analysis of the deposited data

How the results depend on the processing

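Each group had 1 array, so no result could be repeated without a sample, and precision is limited by the number of arrays. No paired analysis was possible because no group had a second array. All 30 member differences kept their sign under the 7 alternatives that recompute them, and 10 of the 14 past 2-fold stayed past it in each of these. The other 4 were Dusp5 in all 3 comparisons (with normexp correction 0.55 against NSC for NSC-Ceacam1L, 0.89 against NSC for NSCL61, and 0.94 for the hairpin array) and Spred2 in NSC-Ceacam1L minus NSC (-0.78 with spike-in scaling, -0.98 with normexp correction and just short of 2-fold with cyclic loess). Among the 7, the lowest-mean probe could move only Spred1 and Etv4, the members with several probes. The deposited table could move little, since its differences followed the scanner signals with slopes of 0.9999 to 1.0000. Normexp with an offset draws dim signals together by construction. For the other shifts, the cause was not tested.

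In NSC-Ceacam1L minus NSC, the members' median of -0.45 became -0.18 under quantile normalization, -0.16 with cyclic loess and -0.07 with spike-in scaling, and with these the median of all genes moved from -0.10 to 0.03, 0.12 and 0.27. The 1 lower gene became 0 under cyclic loess (4.03% of all genes), spike-in scaling (3.02%), normexp correction (3.42%) and the 4-fold threshold (1.85%). From 1.5-fold, 3 genes were lower (16.8%). The 1 higher gene became 0 with normexp correction (4.84%) and from 4-fold (3.91%). In NSCL61-Ceacam1sh minus NSCL61, the median of 1.13 became 1.55 under median scaling, 1.56 under spike-in scaling (all genes 0.43 and 0.44), 0.83 with normexp correction and 1.56 with the lowest-mean probe. The 5 higher genes became 7 under spike-in scaling (33.7% of all genes) and 6 under median scaling (33.4%). They were also 6 with the lowest-mean probe and from 1.5-fold (33.3%). The count fell to 4 with normexp correction (18.1%) and to 3 from 4-fold (11.6%). The count of 0 lower became 1, Spry1, under cyclic loess (24.5% of all genes) and from 1.5-fold (33.1%). In NSCL61 minus NSC, the median of -1.88 became -2.12 under spike-in scaling (all genes -0.20) and -1.59 with normexp correction. With that correction the 1 higher gene became 0 (8.99% of all genes). With the deposited table, the members' counts stayed within 1.5 times and their medians within 1 modelled error. The filter on dim probes removed no member, so leaving it out could not change these values.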
